A study of Homo sapiens with 6 samples.

Results

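The regions described here are stretches of the genome where the TCF4 library of a CUT&Tag experiment had a peak, none of the other libraries did, and the TCF4 summit lay no more than 1 kb from where a protein-coding gene begins or ends. They were found by pooling the peaks of 5 libraries on chromosomes 1 to 22 and X, merging intervals that overlap by 1 bp or more, keeping merged regions that hold TCF4 peaks alone, and measuring the distance from the strongest TCF4 summit to the nearest gene end in the RefSeq annotation of GRCh38. The rule gave 4970 regions, out of 61457 merged regions in all, 29994 that hold a TCF4 peak, and 13262 that hold a TCF4 peak and no other. Each of the 4970 held exactly 1 TCF4 peak. The regions were thus selected on measured values, the presence of a TCF4 peak and the absence of HAND2 and MEIS2 peaks, so their folds and widths are given as a description, with no test.

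CUT&Tag places a transposase at an antibody's target in permeable cells, so that sequenced fragments pile up where the protein sits. All libraries came from SK-N-BE(2), a human neuroblastoma cell line, and the labels give no treatment or genotype difference between them. Antibodies against TCF4 (1 library), HAND2 (2 libraries) and MEIS2 (2 libraries) each gave a peak list, and non-specific IgG (1 library) has no peak list of its own here. With 1 TCF4 library there is no replicate check on any TCF4 value, and nothing in the labels says whether the replicate HAND2 and MEIS2 libraries came from separate cultures. The TCF4 list held 30704 peaks, against 30410 and 33484 for HAND2 replicates 1 and 2 and 9595 and 13871 for MEIS2 replicates 1 and 2.

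TCF4 is an E protein, a broadly expressed basic helix-loop-helix factor that binds the E-box, CANNTG, as a dimer with itself, with other E proteins or with tissue-restricted partners such as HAND2. MEIS2 is a TALE homeodomain factor with another recognition sequence. The E protein should not be confused with TCF7L2, an effector of WNT signalling that the literature also calls TCF4. Promoters of genes that every cell uses are mostly CpG islands, which are rich in G and C and often hold GC boxes, GGGCGG, bound by SP factors. Gene starts are also among the most open stretches of chromatin.

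The promoters of the strongest regions whose summit fell inside a promoter window (250 bases before to 50 bases after an annotated start) are printed here to show the E-boxes and GC boxes that the motif results below turn on. They were chosen by fold and do not stand for all 4970 regions. They come from RefSeq on GRCh38.p14, 5′ to 3′ along the gene's strand, with every CANNTG in capitals. CIMAP1D is chr19:491575-491874, minus strand; GAA, which encodes the lysosomal acid alpha-glucosidase, is chr17:80101331-80101630, plus strand. MED16, a subunit of the Mediator complex that links transcription factors to RNA polymerase II, is chr19:893138-893437, minus strand. RAB43, a small GTPase, is chr3:129121965-129122264, minus strand. SPATA2L is chr16:89701656-89701955 and REXO1, named as an RNA exonuclease, is chr19:1848434-1848733, both on the minus strand.
CIMAP1D: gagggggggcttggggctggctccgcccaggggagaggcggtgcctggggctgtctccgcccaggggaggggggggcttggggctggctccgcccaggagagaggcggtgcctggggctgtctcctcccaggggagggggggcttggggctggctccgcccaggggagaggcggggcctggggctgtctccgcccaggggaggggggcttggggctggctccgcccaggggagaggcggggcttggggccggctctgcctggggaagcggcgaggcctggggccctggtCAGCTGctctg
GAA: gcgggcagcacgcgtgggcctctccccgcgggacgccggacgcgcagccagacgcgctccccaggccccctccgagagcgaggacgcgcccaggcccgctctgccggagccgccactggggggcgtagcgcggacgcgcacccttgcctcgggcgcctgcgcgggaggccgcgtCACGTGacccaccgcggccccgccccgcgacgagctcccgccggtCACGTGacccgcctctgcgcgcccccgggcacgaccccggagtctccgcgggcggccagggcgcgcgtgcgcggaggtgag
MED16: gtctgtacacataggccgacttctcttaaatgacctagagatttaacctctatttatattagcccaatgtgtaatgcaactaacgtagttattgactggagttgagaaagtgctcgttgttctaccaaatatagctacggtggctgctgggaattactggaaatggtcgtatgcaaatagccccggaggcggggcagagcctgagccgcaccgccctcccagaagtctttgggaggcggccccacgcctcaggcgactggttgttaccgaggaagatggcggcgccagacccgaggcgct
RAB43: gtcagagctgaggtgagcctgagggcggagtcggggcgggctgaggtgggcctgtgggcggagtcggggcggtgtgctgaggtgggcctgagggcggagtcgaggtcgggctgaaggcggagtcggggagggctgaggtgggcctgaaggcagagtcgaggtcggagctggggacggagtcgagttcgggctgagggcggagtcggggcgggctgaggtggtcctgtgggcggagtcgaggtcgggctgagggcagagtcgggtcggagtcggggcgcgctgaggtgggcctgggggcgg
SPATA2L: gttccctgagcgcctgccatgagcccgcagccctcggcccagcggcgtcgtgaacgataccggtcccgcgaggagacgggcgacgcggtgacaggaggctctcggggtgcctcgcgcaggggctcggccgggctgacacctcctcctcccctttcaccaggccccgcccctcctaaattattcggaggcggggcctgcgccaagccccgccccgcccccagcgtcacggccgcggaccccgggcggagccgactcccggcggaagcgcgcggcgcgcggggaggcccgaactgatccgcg
REXO1: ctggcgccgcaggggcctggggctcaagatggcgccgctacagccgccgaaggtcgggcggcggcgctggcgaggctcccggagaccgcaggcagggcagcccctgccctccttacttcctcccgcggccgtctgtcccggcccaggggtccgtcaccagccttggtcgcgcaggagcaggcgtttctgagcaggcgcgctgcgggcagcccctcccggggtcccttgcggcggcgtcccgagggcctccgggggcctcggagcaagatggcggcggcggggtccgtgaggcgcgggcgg

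Of these 6 promoters, 4 held no CANNTG on either strand. CIMAP1D had a single CAGCTG, 10 bp from the TCF4 summit, and GAA had 2 copies of CACGTG, the nearer 116 bp from the summit. All 6 held GGGCGG on one strand or the other: 9 copies in RAB43, 6 in CIMAP1D, 4 in SPATA2L, 2 each in GAA and REXO1, and 1 in MED16. GC content was 81.3% in GAA, 78.0% in CIMAP1D, 77.3% in REXO1, 75.7% in SPATA2L, 73.3% in RAB43 and 52.7% in MED16. The CIMAP1D and RAB43 windows are built of near-repeats. Set against itself at a shift of 133 bases, the CIMAP1D window matched at 65.3% of bases, and RAB43 at a shift of 136 bases matched at 59.1%, while the best shift gave 31.7% to 42.6% in the other four. Whether reads from these repeats were placed at a single locus was not tested.

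The peak fold used throughout is the authors' own value, the fragment pile-up at the summit over a local background estimated from a control, and the intervals beside single folds are 95% counting intervals on the pile-up, which cover counting error only. The strongest region of all, with 904 fragments at the summit, lay 96 bp inside the start of JMJD7, a JmjC-domain protein, and within 1 kb of ends of JMJD7-PLA2G4B and MAPKBP1. Its fold was 63.2 (59.1 to 67.4). PRR5-ARHGAP8, a read-through transcript, followed at 54.7 (49.98 to 59.8), CIMAP1D at 45.0 (40.7 to 49.7), and the region at PIP4K2B and CWC25 at 43.5 (41.1 to 46.0) with the deepest of the 20 highest-fold pile-ups, 1237 fragments. These 4 stood above the rest, since the next region, UBTD1, had 32.1 (29.9 to 34.5).

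**Figure D1:**
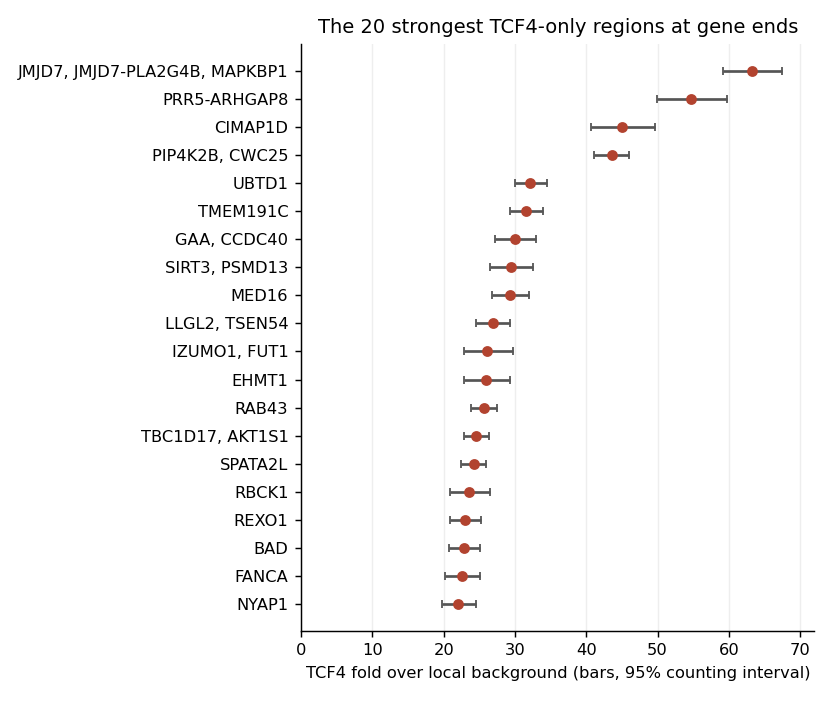
TCF4 fold over local background (x axis, linear) at the 20 TCF4-only regions of highest fold, named by the protein-coding genes with an end within 1 kb of the summit; bars are 95% counting intervals from 1 library. The 4 highest, from 43.5 to 63.2, do not overlap the others, which run from 22.1 to 32.1.

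The region at SIRT3, a mitochondrial deacetylase, and PSMD13, a lid subunit of the proteasome, had a fold of 29.4 (26.5 to 32.5). MED16 had 29.3 (26.7 to 32.0) and GAA, with CCDC40 in the same window, 30.0 (27.2 to 33.0). EHMT1, a histone H3 lysine 9 methyltransferase, had 26.0 (22.9 to 29.3). RBCK1, a subunit of the linear ubiquitin ligase complex, had 23.6 (20.9 to 26.5), and FANCA, a core member of the Fanconi anaemia DNA repair complex, had 22.6 (20.2 to 25.1). BAD, a pro-apoptotic BCL2 relative, had 22.9 (20.7 to 25.2), but its summit lay 930 bp from the BAD start and 129 bp from an annotated start of GPR137. UBTD1 was marked at its 3′ end, 163 bp away, and the nearest annotated start, that of ANKRD2, was not within 1 kb. TMEM191C had 31.5 (29.2 to 34.0) and is uncertain, because the gene has a near-identical copy that can share its reads. The remaining regions among the 20 lay at LLGL2 with TSEN54 (26.9), IZUMO1 with FUT1 (26.1), RAB43 (25.6), TBC1D17 with AKT1S1 (24.5), SPATA2L (24.2), REXO1 (23.02) and NYAP1 (22.1).

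Among the 20, the one closest to a peak of another library was GAA, 1984 bp from a HAND2 replicate 2 peak. A HAND2 peak lay 2185 bp from the CIMAP1D region, while the nearest was 54374 bp from the EHMT1 region and 210883 bp from the SIRT3 and PSMD13 region. The nearest MEIS2 replicate 1 peak was 6699 bp from REXO1 and 375336 bp from EHMT1. The widest of the 4970 regions spanned 7073 bp at SCNN1D and ACAP3, with a fold of 5.05 (4.16 to 6.08). The next 2 were DAZAP1 at 6561 bp and CIMAP1D at 6549 bp.

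Over all 4970 regions the fold had a median of 4.07, with the middle of the distribution between 3.15 and 5.54, the 5th and 95th percentiles at 2.28 and 9.87, and extremes of 1.57 and 63.2. The 4483 TCF4 regions at gene ends that also held a peak of HAND2 or MEIS2 had a median of 6.19, with 5th and 95th percentiles of 2.91 and 17.9. A fold of 10 or more was reached by 235 of the TCF4-only regions (4.73%) and by 938 of the shared ones (20.9%). The TCF4-only regions were also narrower, with a median of 812 bp against 1240 bp, and shallower, with a median summit pile-up of 65 fragments against 120 fragments. The median local control was 19 fragments at TCF4-only regions and 23 fragments at shared ones. The authors' −log10 q had a median of 18.1 against 51.0, and 487 TCF4-only regions (9.80%) were under 5. The 2 groups overlap over most of their range on each of these measures. TCF4-only regions away from gene ends, 8292 in all, had a similar median fold, 3.81, on a pile-up of 35 fragments and 11 control fragments, so gene-end regions rested on more fragments in both the TCF4 library and the control. The part of chromatin openness in this was not tested.

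The weaker a gene-end TCF4 region was, the more often it was TCF4-only. Of the 9453 TCF4 regions at gene ends, 4970 (52.6%) held no other library's peak. Split by fold into 5 classes of equal size, the share was 77.1% (1458 of 1891) in the lowest class, from 1.57 to 3.33, and 67.9%, 53.6% and 39.9% in the next. In the highest class, from 8.15 to 63.2, it was 24.4% (461 of 1890). The TCF4-only regions thus included most of the weak gene-end peaks and a minority of the strong ones.

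**Figure D2:**
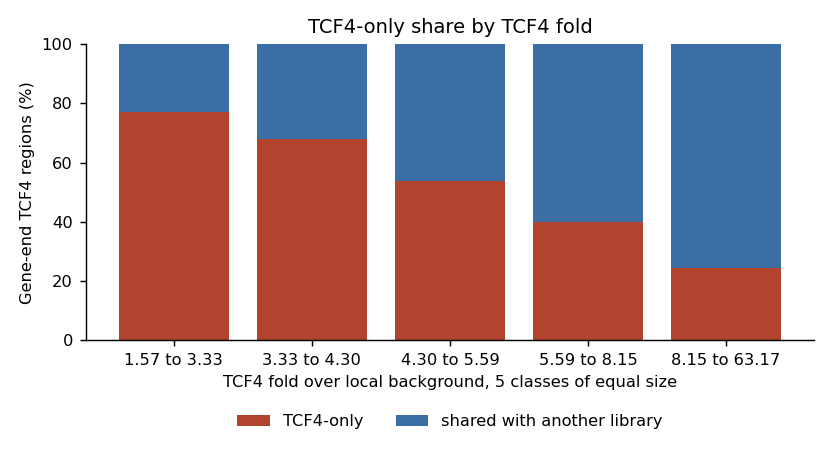
Share of gene-end TCF4 regions (y axis, percent) that were TCF4-only or shared with HAND2 or MEIS2, in 5 classes of equal size by TCF4 fold (x axis, weakest left). The TCF4-only share is 77.1% in the weakest class and 24.4% in the strongest.

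What an absent peak can show differs between libraries. Pile-ups were worked out from each list's fold and −log10 p, which also gave each library's depth relative to the control: 0.784 for TCF4, 0.789 and 0.932 for HAND2 replicates 1 and 2, and 0.248 and 0.368 for MEIS2 replicates 1 and 2. At the control level of the median TCF4-only region, a peak would have needed a fold of 2.01 in the TCF4 list, 2.03 and 1.94 in the HAND2 lists, and 2.91 and 2.57 in the MEIS2 lists. A signal as strong as the TCF4 fold would have passed at 4959 (99.8%) and 4969 regions (99.98%) in the HAND2 lists, but at 3980 (80.1%) and 4440 regions (89.3%) in the MEIS2 lists. It would have passed in all 4 at 3980 regions (80.1%). At the other regions of each list a signal of that size was not detectable at this depth. Such a signal would have passed in 3 of the 4 lists at 460 regions, and in 2 of them at 519 (10.4%). These limits assume that the same control, scaled to each library, was used for every list: at summits on the same base as a TCF4 summit, the control fragments per list were 0.940 to 1.03 times those of TCF4 (medians over 11 to 709 summits).

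Few of the regions bordered another factor's peak. The nearest peak of any other library was a median of 22130 bp away, against 7858.5 bp for TCF4-only regions away from gene ends. It was under 1 kb away at 227 of the 4970 regions (4.57%) and over 100 kb away at 662 (13.3%). By library, the median gap was 39758 and 31886 bp to HAND2 replicates 1 and 2, and 96740 and 183440 bp to MEIS2 replicates 1 and 2, whose lists are shorter.

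Position was measured against the gene's strand where the promoter table gives it, and 3994 regions could be placed. The other 976 had a gene end of unknown strand in the window and no known 5′ end, though some also held a known 3′ end. They include all 183 regions on chromosome 8, for whose genes no promoter entry was used here. That chromosome is also missing from the promoter windows described further on. At the 5′ end lay 3539 regions, 88.6% of those placed, and at the 3′ end alone lay 455 (11.4%). The shared TCF4 regions had 3427 of 3706 at the 5′ end (92.5%) and 279 (7.53%) at the 3′ end alone. Among all TCF4-only regions, 37.5% were at a gene end at all, against 26.8% of shared ones. The 3′ regions had a median fold of 3.84, close to the 4.10 of the 5′ regions, but on 34 fragments against 72 fragments and on 10.85 control fragments against 21.0 control fragments. Just 23 of the 455 (5.05%) had any annotated start within 1 kb, so most were not starts of neighbouring genes in that table.

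Around gene starts the summits fell into a large group downstream and a smaller one upstream, with few on the bases just before the start. The median summit was 97 bp downstream of the start, and 2381 of 3539 (67.3%) lay downstream. Between 100 and 200 bp downstream lay 879 summits (24.8%), and the first 100 bp downstream held 630 (17.8%). The 100 bp before the start held 224 (6.33%), fewer than the 100 bp before those, with 330 (9.32%), or the 100 bp farther up, with 339 (9.58%). Shared regions showed the same 2 humps, with 759 (22.1%) from 100 to 200 bp downstream, 212 (6.19%) in the last 100 bp upstream and 378 (11.03%) from 300 to 200 bp upstream. They were somewhat less often downstream, 61.7%. A summit within 250 bp of the start was found at 70.6% of TCF4-only and 65.3% of shared start regions. Gene starts on both strands lay within the window at 366 TCF4-only regions (10.3%) and 435 shared ones (12.7%). Whether those starts pointed away from each other, as in a bidirectional promoter, was not checked.

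**Figure D3:**
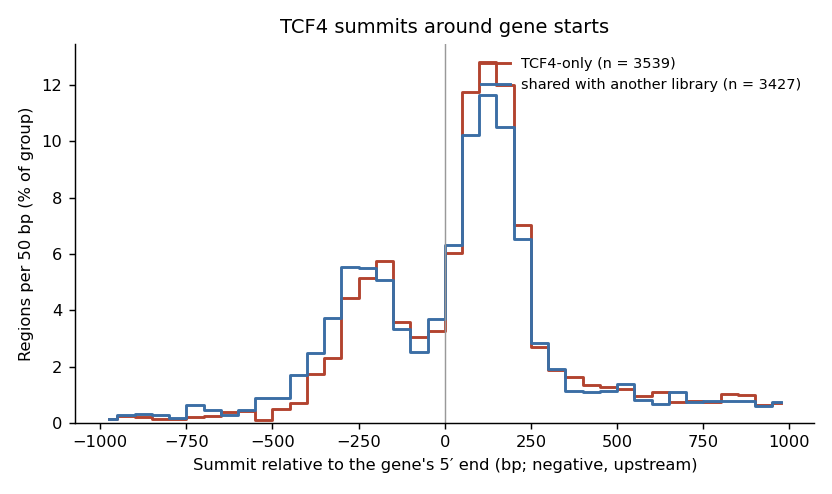
Share of start regions per 50 bp (y axis, percent of the group) by the signed distance of the TCF4 summit from the gene's 5′ end (x axis, bp, negative upstream), for 3539 TCF4-only and 3427 shared regions. Both curves peak between 100 and 200 bp downstream, dip just upstream of the start and have a second hump farther upstream.

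The 1 kb limit cut through a continuous range. Just inside it lay RIMS4 at 1000 bp with a fold of 5.55, CAPN12 at 997 bp with 4.50, and FAM83G at 997 bp with 2.90. Just outside lay TEX22 at 1002 bp with 3.99, KCNJ3 at 1002 bp with 2.88, and TMEM276-ZFTRAF1 at 1004 bp with 3.604.

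By gene, 5396 of 19821 protein-coding genes (27.2%) had a TCF4-only region at an end, 5082 (25.6%) had a shared TCF4 region, 495 had both, and 9983 (50.4%) had either. Genes with a TCF4-only region had a median length of 27120 bp, those with a shared region 25958 bp, and all genes 24482 bp. Chromosomes 22 (35.5% of genes), 17 (34.5%), 19 (33.3%) and 9 (32.4%) had the highest shares with a TCF4-only region, and X (20.6%), 6 (21.2%) and 11 (22.0%) the lowest. On chromosomes 22 and X the shares with a shared region were 42.6% and 12.5%, so chromosome 22 was high and X low for both kinds.

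Gene lists are set against that 27.2% as counts, with no test. In the ubiquitin and SUMO list, 18 of 41 genes (43.9%) had one, among them CUL4A, a cullin scaffold of ubiquitin ligases, at a fold of 11.4 (10.2 to 12.7), the SUMO-activating subunit SAE1 at 8.95 (6.60 to 11.9), and the conjugating enzyme UBE2A at 8.18 (6.84 to 9.71). Of DNA replication and cell cycle genes, 19 of 47 (40.4%) had one: MCM2, part of the replicative helicase, shares its region with TPRA1 at 17.6 (15.6 to 19.8). That summit lay 6 bp from an annotated start of TPRA1 and 186 bp from the MCM2 start. RRM2, the small subunit of ribonucleotide reductase, had 12.9 (11.8 to 14.1) and CDK2, a cell cycle kinase, 10.9 (9.70 to 12.3). The RRM2 region lay 916 bp from a HAND2 replicate 1 peak. Mediator and general transcription factors had 33 of 82 (40.2%), led by MED16 and followed by MED19 at 6.82 and MED14 at 6.62. A region counted for every gene with an end within 1 kb, so a fold is not particular to the gene named. CUL4A shares its window with PCID2, CDK2 with PMEL, and MED19 with TMX2. Among genes named below, BRCA2 shares its window with ZAR1L, SNRPA with ACTMAP, MRPL2 with KLC4, ATG2A with PPP2R5B, and ZNF318 with LOC124901227.

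The lists of protein synthesis and splicing had shares between 34.9% and 40%. Translation initiation factors had 22 of 55 (40%), with EIF4EBP2, a repressor of cap-dependent translation, at 8.94, EIF4A3, an exon junction helicase, at 7.71, and EIF6 at 7.66. The EIF4EBP2 region lay 336 bp from a HAND2 replicate 1 peak. The EIF6 summit lay 950 bp from that gene's 3′ end and 166 bp from the start of MMP24OS, in a window of 4 genes. Aminoacyl-tRNA synthetases had 13 of 35 (37.1%), led by YARS2, the mitochondrial tyrosyl enzyme, at 7.35, then CARS1 at 6.99 and QARS1 at 6.05. Cytosolic ribosomal proteins had 30 of 86 (34.9%), with RPL13 at 9.08, RPL3L, in a window shared with MSRB1, at 8.18 and RPS16 at 7.28. Their processed pseudogenes could take part of the reads in the authors' mapping, so values for these genes are uncertain. The RPL3L summit lay 651 bp from an end of that gene and 124 bp from an annotated start of MSRB1. Mitochondrial ribosomal proteins had 27 of 77 (35.1%), none above the 6.03 of MRPL2, followed by MRPL12 at 5.77 and MRPL4, at its 3′ end, at 5.70. Splicing factors had 23 of 58 (39.7%), with SRSF4 at 11.99, LSM2 at 7.75 and SNRPA at 6.02.

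Nuclear genes of oxidative phosphorylation had TCF4-only regions at 31 of 82 (37.8%). NDUFS1, a core subunit of complex I, had 9.89 (8.30 to 11.7) in a window shared with EEF1B2, the accessory subunit NDUFB7 had 9.09 (7.52 to 10.9), and ATP5PO, a stalk subunit of ATP synthase, had 8.82 (7.49 to 10.3). The proteasome had 13 of 39 (33.3%), with PSMD13 at 29.4 above PSMD9 at 6.22 and PSMA7 at 6.21. The PSMD13 summit lay 717 bp from that gene's start and 672 bp from the start of SIRT3. The PSMD9 summit lay at that gene's 3′ end, 102 bp from the start of CFAP251, and PSMA7 shares its window with SS18L1. DNA repair had 13 of 40 (32.5%), led by FANCA, by BRCA2, central to homologous recombination, at 14.6 (12.1 to 17.5), and by the mismatch repair gene MSH6 at 10.5 (9.26 to 11.8). That last count was 20 without HAND2 replicate 2. Autophagy and lysosome genes had 11 of 36 (30.6%), GAA first, then WIPI2 at 5.60 and ATG2A at 5.30, and 18 without HAND2 replicate 2. The large family of zinc finger genes had 149 of 509 (29.3%), near the share of all genes, with ZNF280B at 18.7, ZNF318 at 13.6 and ZNF25 at 12.8.

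Shared TCF4 regions, found at 25.6% of all genes, were at 55.6% of autophagy and lysosome genes, 45.5% of translation initiation factors, 45.0% of DNA repair genes, 41.4% of splicing factors, 40.7% of cytosolic ribosomal and 40.4% of replication genes. The TCF4-only share was the higher of the pair for the ubiquitin and SUMO list (43.9% against 34.1%), mediator and general factors (40.2% against 28.0%), oxidative phosphorylation (37.8% against 28.0%), the proteasome (33.3% against 23.1%) and mitochondrial ribosomal proteins (35.1% against 31.2%). It was also the higher, by a small margin, for zinc finger genes (29.3% against 27.7%) and for all genes (27.2% against 25.6%).

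**Figure D4:**
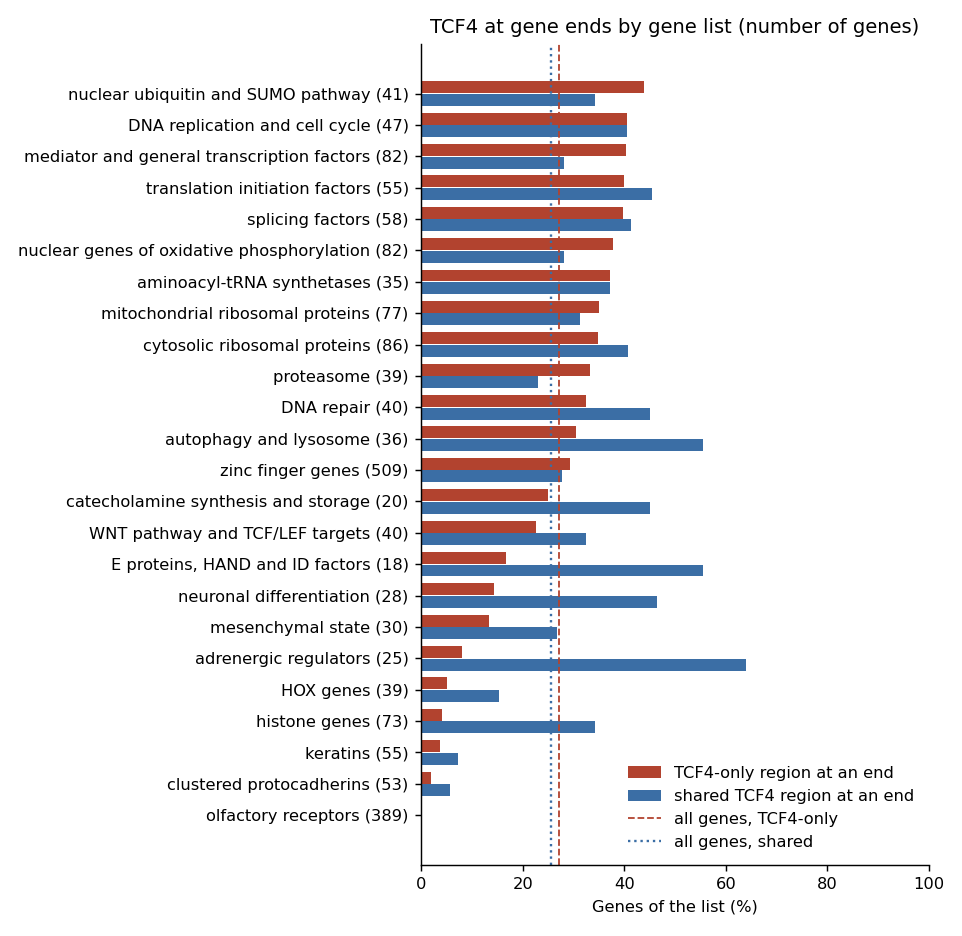
Percent of each list's genes (x axis) with a TCF4-only region (upper bar) or a shared TCF4 region (lower bar) at an end, with the number of genes in brackets; the dashed and dotted lines are all protein-coding genes, 27.2% and 25.6%. The upper bars run from 43.9% in the ubiquitin and SUMO list to 0 in olfactory receptors, and the adrenergic, neuronal and E protein lists have short upper and long lower bars.

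Adrenergic regulators, the transcription factors of the noradrenergic neuroblastoma state, had TCF4-only regions at 2 of 25 genes (8%) and shared regions at 16 (64.0%). The 2 were INSM1, a zinc finger factor of neuroendocrine cells, at a fold of 4.11 (3.14 to 5.28), and GATA2, at its 3′ end, at 3.70 (2.40 to 5.47), and the count was 4 without MEIS2 replicate 1. Neuronal differentiation genes had 4 of 28 (14.3%) against 13 (46.4%): the GDNF family receptors GFRA3 at 6.17 (4.43 to 8.37) and GFRA2 at 4.26 (3.07 to 5.76), TUBB3, neuronal beta-tubulin, at its 3′ end at 4.30 (2.81 to 6.31), and SYP, the synaptic vesicle protein synaptophysin, at 2.19 (1.47 to 3.16). The GFRA3 region ended 440 bp from a peak of another library, and the list's count was 7 without HAND2 replicate 2. Catecholamine genes had 5 of 20 (25%) against 9 (45.0%), with CHGA, a granule protein, at its 3′ end at 4.94, in a window shared with ITPK1 and 620 bp from another peak, GCH1, which makes the cofactor of tyrosine hydroxylase, at 4.41, and QDPR, which regenerates it, at 3.99. Mesenchymal-state genes had 4 of 30 (13.3%) against 8 (26.7%), with NFKB1 at 5.25, IRF1 at 5.22, COL1A1 at 3.58 and FOSL1 at 2.38.

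Among E proteins, HAND and ID factors, the family of TCF4 itself, 3 of 18 genes (16.7%) had a TCF4-only region and 10 (55.6%) a shared one. They were TCF3, another E protein, at its 3′ end at 3.73 (2.59 to 5.22), and the lineage factors NEUROD1 at 3.01 (2.12 to 4.15) and MYOD1 at 2.81 (2.00 to 3.84), all under the median of 4.07, and the count was 7 without MEIS2 replicate 1. The WNT pathway list had 9 of 40 (22.5%) against 13 (32.5%): AXIN1, a scaffold of the destruction complex, at 13.7 (12.7 to 14.7), the receptor FZD5 at 13.0 (11.8 to 14.3), the signal transducer DVL1 at 7.33 (5.81 to 9.14), and AXIN2, a feedback inhibitor, at 5.73 (4.75 to 6.86). Its TCF4-only share was under that of all genes.

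Olfactory receptors had 0 of 389 and no shared region either. Clustered protocadherins had 1 of 53 (1.89%), PCDHGC4 at 2.85, against 5.66% with a shared region. Keratins had 2 of 55 (3.64%), KRT17 at 5.96 and KRT19 at 3.04, against 7.27%. HOX genes had 2 of 39 (5.13%), HOXD9 at 8.22 and HOXC9 at 4.66, or 4 without MEIS2 replicate 1, against 15.4%. KRT19 is a member by a narrow margin, since its region ended 6 bp from another library's peak. Of histone genes, 3 of 73 (4.11%), H3C13 at 3.93, H2AC18 at 3.85 and H2BC18 at 3.33, had a TCF4-only region, against 25 (34.2%) with a shared one, and 7 had a TCF4-only region without MEIS2 replicate 1. Histone genes are near-identical copies, so which copy a read came from is uncertain.

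Sequence was not used by the rule. Of the 4970 regions, 1191 had their summit inside a promoter window, 1307 windows in all because starts overlap, out of 22132 windows. CANNTG, searched on both strands, was in 56.4% of windows with a TCF4-only summit, 57.3% of those with a shared summit, 72.4% of those with no TCF4 peak, and 65.1% of all. So, without regard to base composition, the E-box was not more frequent in these 1307 windows than in all windows. At regions with the summit outside a promoter window, the sequence at the summit was not read. Single forms of the E-box are contained in CANNTG. One of them, CAGCTG, was in 19.7% of TCF4-only windows against 18.0% of all, and CAGGTG in 19.4% against 20%. CATCTG was less frequent, 7.19% against 12.2%, and so was CATATG, another E-box form, at 0.536% against 2.03%. CACGTG was slightly more frequent, 10.3% against 8.34%. The letters of the WNT factor motif, CTTTGAT, were in 0.765% against 1.99%, and the MEIS motif TGACAG was in 10.9% against 14.8%. The longer TALE motif TGATTGAC was in 0.459% against 0.614%, and the palindrome bound by NRF1 in 1.68% against 1.5%.

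Base composition differed more from that of promoters without a TCF4 peak, and the shared regions were close to the TCF4-only ones. GGGCGG was in 84.7% of windows with a TCF4-only summit, 81.0% with a shared one, 35.9% with no TCF4 peak and 56.3% of all. The median GC content was 70.7% at TCF4-only summits, 68.0% at shared ones, 54.7% with no TCF4 peak and 62.3% overall. The observed over expected CpG ratio had medians of 0.879, 0.861, 0.412 and 0.738 in the same order. CCGGAAGT, an ETS-type motif common in housekeeping promoters, was in 10.3% of TCF4-only windows, 7.83% of shared ones, 3.04% without a peak and 5.35% of all. CCAAT was in 29.0%, 36.4%, 35.1% and 34.6%, and TATAAA in 2.45%, 3.22%, 14.6% and 9.46%.

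**Figure D5:**
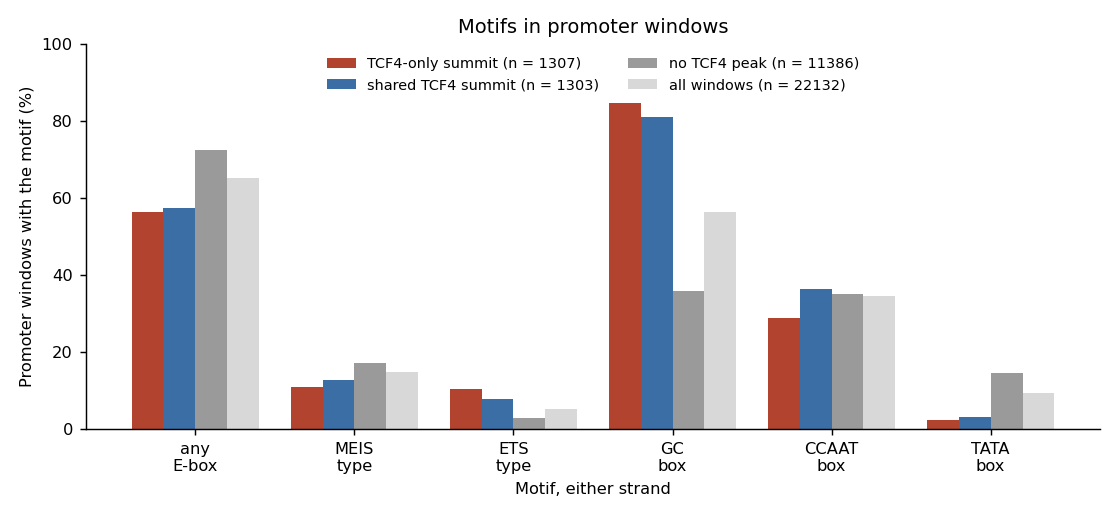
Percent of promoter windows (y axis) that hold each motif on either strand (x axis), for windows with a TCF4-only summit, a shared TCF4 summit, no TCF4 peak, and all windows. GC boxes are in 84.7% of TCF4-only windows against 56.3% of all, and E-boxes in 56.4% against 65.1%.

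These shares varied with base composition. Among windows of 65% to 75% GC, GGGCGG was in 88.0% of 702 TCF4-only windows, 86.9% of shared windows, 79.5% of those with no TCF4 peak and 84.3% of all. In the same class CANNTG was in 58.7%, 55.5%, 61.3% and 57.4%, and CCGGAAGT in 11.8%, 8.75%, 3.89% and 6.96%. Among windows of 55% to 65% GC, GGGCGG was in 64.7% of 278 TCF4-only windows, 64.8% of shared windows, 44.0% of those with no TCF4 peak and 52.8% of all. CANNTG was there in 63.3%, 63.8%, 73.2% and 69.0%, and CCGGAAGT in 14.4%, 8.42%, 5.06% and 7.63%. The GC box was thus more frequent than in windows with no TCF4 peak in both of these classes, by a wider margin in the lower one. This was not so at 75% GC or more. There GGGCGG was in 96.5% of 318 TCF4-only windows, 96.7% of shared windows, 95.9% with no TCF4 peak and 96.9% of all. CANNTG was in 45.6%, 50.2%, 54.9% and 47.2% of these windows, in the same order. Under 55% GC there were only 9 TCF4-only windows. Other motifs varied too. At 65% to 75% GC, CATCTG was in 8.4% of TCF4-only windows against 7.5% of all, and TGACAG in 10.5% against 11.4%. TATAAA was there in 1.85% against 2.54%. CATCTG was in 9.7% against 13.8% at 55% to 65% GC, TGACAG in 16.9% against 17.0%, and TATAAA in 5.4% against 6.0%. CACGTG was in 11.8% against 10.7% at 65% to 75% GC and 5.4% against 9.5% at 55% to 65% GC. CCAAT was in 28.5% against 30.7% and 43.9% against 38.5% in the same order. Taken over all its forms, the E-box hardly gathered at summits. CANNTG occurred at 3.13 matches per 1000 positions within 25 bp of TCF4-only summits, 3.24 at 75 to 100 bp and 2.66 at 125 to 150 bp. The single form CAGGTG was more frequent near summits, at 0.939 within 25 bp (57 matches) and 0.555 at 125 to 150 bp (19 matches) in TCF4-only windows. In shared windows it occurred at 0.923 and 0.585. GGGCGG was more frequent away from summits in both kinds of window. It went from 6.49 within 25 bp to 10.1 at 125 to 150 bp in TCF4-only windows, and from 5.92 to 8.86 in shared ones. CCAAT had 1.09 and 1.63 at these distances in TCF4-only windows, with 2.59 at 100 to 125 bp, and 1.32 and 2.7 in shared ones. These are letter matches, and a match is not a bound site.

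The regions also overlapped 31 of 1560 annotated miRNA hairpins. Hairpins under shared TCF4 regions were not counted, so this number is not read as a trait of the TCF4-only regions. The strongest were MIR191, 1157 bp from a summit of fold 16.1 at DALRD3, MIR6853, at TLN1 and CREB3, with 16.1, and MIR1281 at EP300, with 14.5. Hairpins close to a summit included MIR4453 at FBXW7, 20 bp away with a fold of 3.31, and MIR3615 at NHERF1, 43 bp away with 6.45.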

How the data were processed

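CUT&Tag libraries of SK-N-BE(2) cells were sequenced, demultiplexed with bcl2fastq 2.17, aligned with Bowtie2 and called with MACS3 3.0.0a6, per the submitters' processing notes, on hg38. The 5 deposited peak lists give, per peak, a fold over local background (a ratio made by the authors' caller), a −log10 p and a −log10 q made by the authors' caller, and a deposited score. The peaks were called per library. No source used here gives the calling parameters or the read totals, so sequencing depth is unknown beyond the depth relative to the control. The IgG library has no peak list used here.

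Peaks of all 5 lists were merged and members found as in the rule. Gene ends come from RefSeq (GRCh38.p14): 19821 protein-coding genes were used, and 153 numbered on other sequences were left out, since the table gives them coordinates of those sequences. Strand and promoters came from the promoter table, for 15813 genes, leaving 4008 without, all 707 genes of chromosome 8 among them. Pile-ups were solved from fold and −log10 p, matching 100% of peaks to 6 significant digits. This step, and the rule, were tested on simulated data. Intervals are exact Poisson at 95%. There were no tests: members and the 24 lists were chosen with earlier results of these data known. Genes are named by rule: the 20 of highest fold, the 3 highest of each list, those at the distance limit, the widest; FOSL1, SYP and AXIN2, and the miRNA hairpins, were named after their values were seen. Alternatives were distance, thresholds, leaving out libraries, gap and overlap. Python 3.11.15, numpy 2.4.6, pandas 2.3.3, scipy 1.17.1 and matplotlib 3.10.9 were used.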

Additional observations from a re-analysis of the deposited data

How the results depend on the processing

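The 4970 regions numbered 3180 with summits within 250 bp of an end and 1576 with TCF4 folds of 5 or more, where the genes of all lists fell to 147, against 437. Leaving out the other libraries in turn gave 4974 to 6107 regions, a median fold of 4.07 to 4.26, a median width of 812 to 863 bp and 88.6% to 89.4% at 5′ ends. The median fold, 4.07 as reported, was 3.999 with summits within 2000 bp, 4.30 with TCF4 −log10 q of 5 or more, 6.66 with folds of 5 or more, and 4.175 when only other peaks with −log10 q of 5 or more counted. Under those thresholds the median width, 812 bp as reported, was 859 bp (TCF4 q), 1115 bp (fold) and 845 bp (other peaks). The share at 5′ ends, 88.6% as reported, was 96.2%, 93.4% and 84.0% at 250, 500 and 2000 bp, 90.0% under the TCF4 q threshold, 91.8% under the fold threshold and 91.6% with no other peak within 5000 bp. The share of windows with CANNTG was 55.7% to 57.9% in all. Of 408 recomputed list counts, 339 were within 1.5 times the reported count and 69 were not. Keeping the 153 genes on other sequences, an alternative chosen after seeing the data like the classes of GC content, gave 4977 regions. No paired analysis was possible because TCF4 has 1 library and no result comes from a test. The depth of the MEIS2 lists limits what absence shows.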
